A study of Mus musculus with 56 samples.

Results

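The mouse proteasome genes were followed through 7 groups of sorted CD8 T cells that recognise 1 peptide shared by a skin graft and a fetus. They were taken by symbol as every protein-coding gene whose name starts with Psma, Psmb, Psmc, Psmd, Psme, Psmf or Psmg and a number, which gave 51 of the 55359 genes in the count table. By role they were 8 genes of the 20S alpha ring, 8 constitutive genes of the 20S beta ring, 5 immunoproteasome genes (Psmb8, Psmb9, Psmb10, Psme1 and Psme2), 6 base ATPases and 11 non-ATPases of the 19S regulatory particle, 7 assembly chaperones and 3 other activators or inhibitors (Psme3, Psme4 and Psmf1). The symbols also caught 3 genes that encode no subunit or are a gene copy: Psmc3ip, a recombination factor, Psme3ip1, a partner of an activator, and Psme2b, a single-exon copy of Psme2. Enough counts for testing were held by 49 of the 51, among 19657 genes tested in all. Of the other two, Psma8, the alpha subunit of male germ cells, had 1 count in all libraries together, and Psmb11, the beta subunit of the thymic cortex, had 12 counts and exceeded 3 in 1 library.

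RNA was sequenced from CD8 T cells of individual C57BL/6 females, pooled from spleen and lymph nodes and sorted in lots of 200 cells with a tetramer for an ovalbumin peptide on H-2Kb (OVA:Kb). All animals had the same genetic background, and the 2W-OVA.BALB/c donor of the graft, or sire of the fetuses, carried the ovalbumin transgene. Naive mice (3 samples) had neither a graft nor a mating, and Sensitized mice (4 samples) had rejected a 2W-OVA.BALB/c skin graft and were not mated. Naive mice taken after a semi-allogeneic pregnancy by such males gave 2 subsets, N+P C1 (PD1-; 3 samples) and N+P C5 (PD1+CD73+; 3 samples), and sensitized mice taken after such a pregnancy gave S+P C4 (PD1-; 6 samples), S+P C5 (PD1+CD73+; 6 samples) and S+P C7 (PD1+CD73-; 5 samples). The subsets are surface gates named after clusters, so each holds whatever cells fell in the gate, and fewer cells of one kind cannot be told apart from less RNA per cell.

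The proteasome is the barrel-shaped protease that removes proteins tagged with ubiquitin. Its 20S core stacks alpha rings, which gate the entrance, on beta rings, which hold the catalytic sites in Psmb5, Psmb6 and Psmb7. The 19S particle caps the core, and its Psmc ATPases unfold the substrate while its Psmd subunits bind and release ubiquitin. In lymphocytes, and in other cells under interferon gamma, Psmb8, Psmb9 and Psmb10 are built in place of Psmb5, Psmb6 and Psmb7, and Psme1 and Psme2 form the PA28 cap, a form known as the immunoproteasome that cuts peptides suited to MHC class I.

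Total counts ran from 6636532 to 32625243 over 56 libraries (median 17299849), and the members took between 0.4528% and 0.8954% of the counts of a sample. One column held the same counts in a Naive and a S+P C4 mouse and was left out of both, and a near-identical pair of libraries from S+P C7 mice 1 and 2 (r = 0.999 on the log2 scale) was averaged into 1 sample, leaving 30 samples. In 3 of these (replicates 2 and 3 of S+P C4, replicate 3 of S+P C7) only 7436 to 8002 genes were detected, against 12383 to 26805 in the other 27, so results that rest on them are given with and without them. In the labels each of these 3 has 1 library, as have S+P C5 replicates 2 and 3 (12416 and 12652 genes). The Naive and S+P C4 samples that lost the shared column also rest on 1 library, and the others on more than 1. All 5 CD8 T cell markers were present in every group (summed CPM 3760 to 7400), while Cd4 stayed at or below 3.71 CPM and Foxp3 at or below 4.45 CPM. Summed erythroid markers reached 18800 CPM in a S+P C7 sample, gamma-delta T cell markers 1370 CPM in a S+P C4 sample, myeloid markers 345 CPM in a Sensitized sample, NK cell markers 328 CPM in a S+P C7 sample, B cell markers 62.8 CPM and platelet markers 7.51 CPM, and their part in the results was not tested.

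The sequence upstream of the constitutive catalytic genes Psmb5 and Psmb6 and of the immunoproteasome gene Psmb9 is shown because these sets are held to answer to different factors: Nrf1, encoded by Nfe2l1, acts on proteasome genes through antioxidant response elements, while Irf1 acts on Psmb9. Each line gives 200 bases that end just before the RefSeq transcription start in build GRCm38.p6, 5′ to 3′ on the strand of the gene. Psmb5 is printed from chr14:54617996-54618195 (- strand), Psmb6 from chr11:70525157-70525356 (+ strand) and Psmb9 from chr17:34187331-34187530 (- strand). Capitals mark TGACNNNGC (the core of an antioxidant response element) in Psmb5 and Psmb6, and CCAAT read on the opposite strand, ATTGG, in Psmb9.
Psmb5: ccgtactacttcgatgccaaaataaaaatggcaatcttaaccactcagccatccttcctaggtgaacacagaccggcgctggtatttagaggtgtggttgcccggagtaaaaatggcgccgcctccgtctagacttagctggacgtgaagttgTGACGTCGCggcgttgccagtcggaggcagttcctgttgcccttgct
Psmb6: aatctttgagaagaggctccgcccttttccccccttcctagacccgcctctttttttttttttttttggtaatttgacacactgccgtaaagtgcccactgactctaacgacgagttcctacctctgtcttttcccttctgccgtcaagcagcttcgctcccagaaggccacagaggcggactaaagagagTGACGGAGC
Psmb9: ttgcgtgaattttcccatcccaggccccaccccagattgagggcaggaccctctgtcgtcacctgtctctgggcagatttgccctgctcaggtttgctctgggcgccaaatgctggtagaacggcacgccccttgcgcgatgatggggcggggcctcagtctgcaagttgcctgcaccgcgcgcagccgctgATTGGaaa

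The match TGACGTCGC of Psmb5 spans bases 47 to 39 before the start, and TGACGGAGC of Psmb6 spans bases 9 to 1. ATTGG of Psmb9 spans bases 8 to 4. Promoters of 300 bases (250 before and 50 after the start) matched 43 of the 51 members and 27025 genes in all, and both strands were searched. TGACNNNGC occurred in 6 of the 43 members (14%) and in 14% of all genes, and in 0 of the 5 immunoproteasome genes. CCAAT occurred in 16 members (37.2%, against 41.1% of all genes) and an interferon response element (GAAA, any 2 bases, GAAA) in 5 (11.6%, against 3.99%), of which Psme1 was the one immunoproteasome gene. Such a match describes the letters in the window and shows no binding. The Psmb9 window shares 275 bases with that of Tap1, a pump that carries peptides to MHC class I, since the genes run in opposite directions from starts 226 bases apart.

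In GRCm39 the immunoproteasome genes sit in neighbouring pairs. Psmb9 (17:34400960-34406738, - strand) and Psmb8 (17:34416690-34420428, + strand) lie 9951 bases apart in the MHC, and Psme1 (14:55815190-55822034, + strand) and Psme2 (14:55824895-55829173, - strand) lie 2860 bases apart. Psmb10 (8:106662362-106665077, - strand) stands alone. The counterparts are Psmb5 (14:54850776-54855481, - strand), Psmb6 (11:70416183-70418684, + strand) and Psmb7 (2:38478044-38534099, - strand). Exons of 24 members overlap an exon of a gene on the other strand, among them Psmb7 with Nek6 (2817 bases), Psme1 with Emc9 (2192 bases), Psmb9 with Tap1 (743 bases) and Psme2 with Rnf31 (731 bases). As the strand setting of the counting was not given in the sources used here, reads of such pairs may not be separated. Reads shared by Psme2 and its copy Psme2b (11:48836181-48837017, - strand) may also be uncertain.

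Immunoproteasome genes were among the most abundant proteasome transcripts of these T cells. On the scale of CPM (counts scaled to the size of the library, with TMM) per kilobase of the canonical transcript, as the mean of the 7 group means, Psme2 had the highest level of the 49 genes (448.8), followed by Psma7 of the alpha ring (340.8), Psmb3 of the beta ring (298.5), Psmb8 (239.5) and Psmb9 (176.9). Psme1 stood at 100.8 per kilobase of its 4227-base transcript, rank 13, but at 570.5 per kilobase of coding sequence, rank 2. The lowest were Psmc3ip at 6.195 and, among true parts of the proteasome, Psme4, the large nuclear activator PA200, at 7.417.

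**Figure D1:**
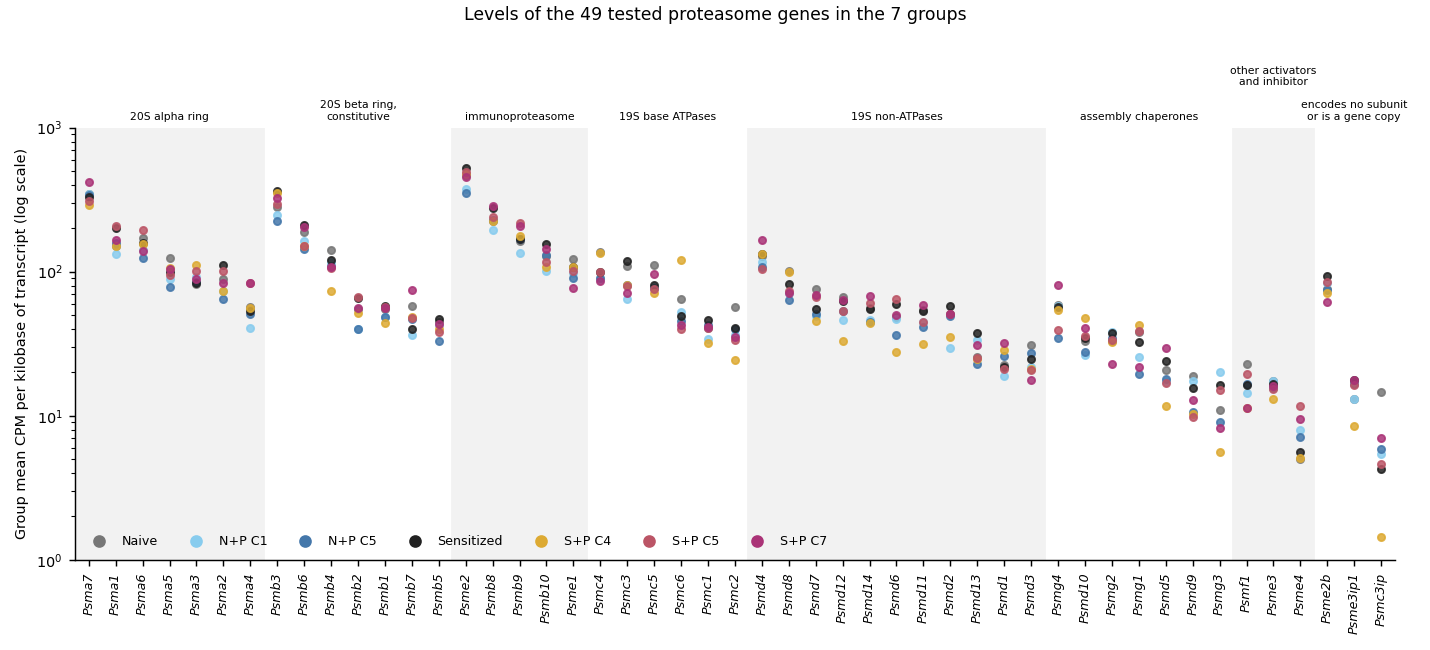
Level of each of the 49 tested genes, as the mean CPM per kilobase of canonical transcript in each of the 7 groups (log axis, all 30 samples), ordered within each class of subunit. The groups lie close together for most genes, while the genes differ widely, from 7.417 for Psme4 and 6.195 for Psmc3ip to 448.8 for Psme2.

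Subunits of the same class differed several-fold in transcript level per kilobase. In the alpha ring the ratio of the highest, Psma7, to the lowest, Psma4 (60.77), was 5.61, and in the constitutive beta ring that of Psmb3 to Psmb5 (41.35) was 7.22. The other constitutive beta ring genes tested ran from 50.3 for Psmb7 to 173.1 for Psmb6. Psmb8, the counterpart of Psmb5, stood at 239.5, and the cause of the gap between Psmb3 and Psmb5 was not tested. The ATPases lay closest, with 105.2 for Psmc4 and 38.12 for Psmc2, a ratio of 2.76. Among the 19S non-ATPases, Psmd4, a ubiquitin receptor, stood at 126.9 and Psmd3 at 23.48. The assembly chaperones, which guide the core rings (Psmg genes) or the ATPase base (Psmd5, Psmd9 and Psmd10) together and leave the finished particle, ran from 54.72 for Psmg4 down to 12.22 for Psmg3. Psmf1, the inhibitor PI31, stood at 16.02. Rank and the distance between members depend on which length is used. Per coding kilobase Psma7 stood at 432.4 and Psma4 at 178.9, and Psmb3 stood at 375.8 and Psmb5 at 88.81. Psmb1, a beta subunit, moved from rank 28 per transcript kilobase to rank 4 per coding kilobase.

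The 5 immunoproteasome genes were expressed in every group, and no comparison gave an unadjusted p under 0.05 for any of them with all 30 samples. Psmb8, the counterpart of Psmb5, stood at 461, 350.2 and 339 CPM in the Naive samples, at 409, 322 and 266 CPM in N+P C1 and at 425, 435 and 298 CPM in N+P C5. It stood at 536, 454, 460.2 and 435 CPM in the Sensitized samples and at 436, 537, 528, 476 and 469 CPM in S+P C7. Its S+P C4 values ran from 249.6 to 601 CPM (median 356) and its S+P C5 values from 243 to 545 CPM (median 443). The Sensitized and S+P C7 samples were therefore on the high side, with means of 472 ± 44.6 (SD, n = 4) and 489 ± 42.2 CPM (SD, n = 5) against 384 ± 67.5 CPM (SD, n = 3) in Naive, but the ranges of Naive and Sensitized overlapped and the log2 fold change between them was 0.30 (SE 0.32, adjusted p = 1, edgeR). Without the 3 samples of few genes, Psmb8 in S+P C4 ran from 350.1 to 388 CPM, below all 4 Sensitized samples, with a log2 fold change of -0.35 (SE 0.21, p = 0.112, adjusted p = 0.567, edgeR).

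Psmb9, the counterpart of Psmb6, stood at 280.3, 190.5 and 193 CPM in Naive, 199.5, 213 and 136 CPM in N+P C1, 250.1, 232 and 205 CPM in N+P C5 and 286, 183, 193 and 254 CPM in Sensitized. It ran from 147 to 362 CPM in S+P C4 (median 229) and from 128 to 409.6 CPM in S+P C5 (median 328), and stood at 299.7, 176, 322, 331 and 269 CPM in S+P C7. S+P C5 held both the highest and the lowest sample of all, so its range covered that of the Sensitized group (means 293 ± 104 CPM, SD, n = 6, and 229 ± 49.5 CPM, SD, n = 4), and the log2 fold change of S+P C5 over Sensitized was 0.35 (SE 0.32, adjusted p = 0.963, edgeR). Psmb10, the counterpart of Psmb7, stood at 261, 138 and 108 CPM in Naive, 183, 129.8 and 82.7 CPM in N+P C1, 211, 203 and 103 CPM in N+P C5 and 204, 253, 172 and 182 CPM in Sensitized. It ran from 108 to 185 CPM in S+P C5 (median 160.1) and stood at 178, 341, 109, 134 and 179.9 CPM in S+P C7. Its S+P C4 values ran from 5.16 to 256 CPM (median 157), the lowest value being in replicate 2, a sample of few genes. The Psmb10 groups overlapped throughout, with log2 fold changes between -0.53 (S+P C4 over Sensitized) and 0.38 (N+P C5 over N+P C1) among the comparisons of 2 groups.

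Psme1 and Psme2 assemble into the PA28 ring, which opens the gate of the core. Psme1 stood at 644, 474 and 446 CPM in Naive, 507, 438 and 294 CPM in N+P C1, 476, 394 and 277 CPM in N+P C5 and 538, 519, 435 and 333 CPM in Sensitized. It ran from 329 to 666 CPM in S+P C4 (median 405) and from 284 to 504 CPM in S+P C5 (median 474), and stood at 365, 29.6, 444, 405 and 395 CPM in S+P C7. The value of 29.6 CPM is replicate 3, a sample of few genes: the log2 fold change of S+P C7 over Sensitized was -0.48 (SE 0.41, p = 0.254) with it and -0.17 (SE 0.21, p = 0.417) without it, both by edgeR.

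Psme2 stood at 647, 376 and 331 CPM in Naive, 360.4, 408 and 310.2 CPM in N+P C1, 379.5, 399 and 237 CPM in N+P C5 and 487, 712, 418 and 411 CPM in Sensitized. It ran from 130.3 to 1185 CPM in S+P C4 (median 364) and from 342 to 618 CPM in S+P C5 (median 487), and stood at 372, 422, 465, 476 and 474 CPM in S+P C7. Both extremes in S+P C4 are samples of few genes, and the other 4 lay between 332 and 396 CPM, below all 4 Sensitized samples (log2 fold change -0.45, SE 0.23, p = 0.0585, adjusted p = 0.443, edgeR without the 3 samples). S+P C5 lay mostly above N+P C5, with a log2 fold change of 0.48 (SE 0.41, p = 0.248) over all 30 samples and of 0.47 (SE 0.23, p = 0.0491, adjusted p = 0.648) without the 3, by edgeR.

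**Figure D2:**
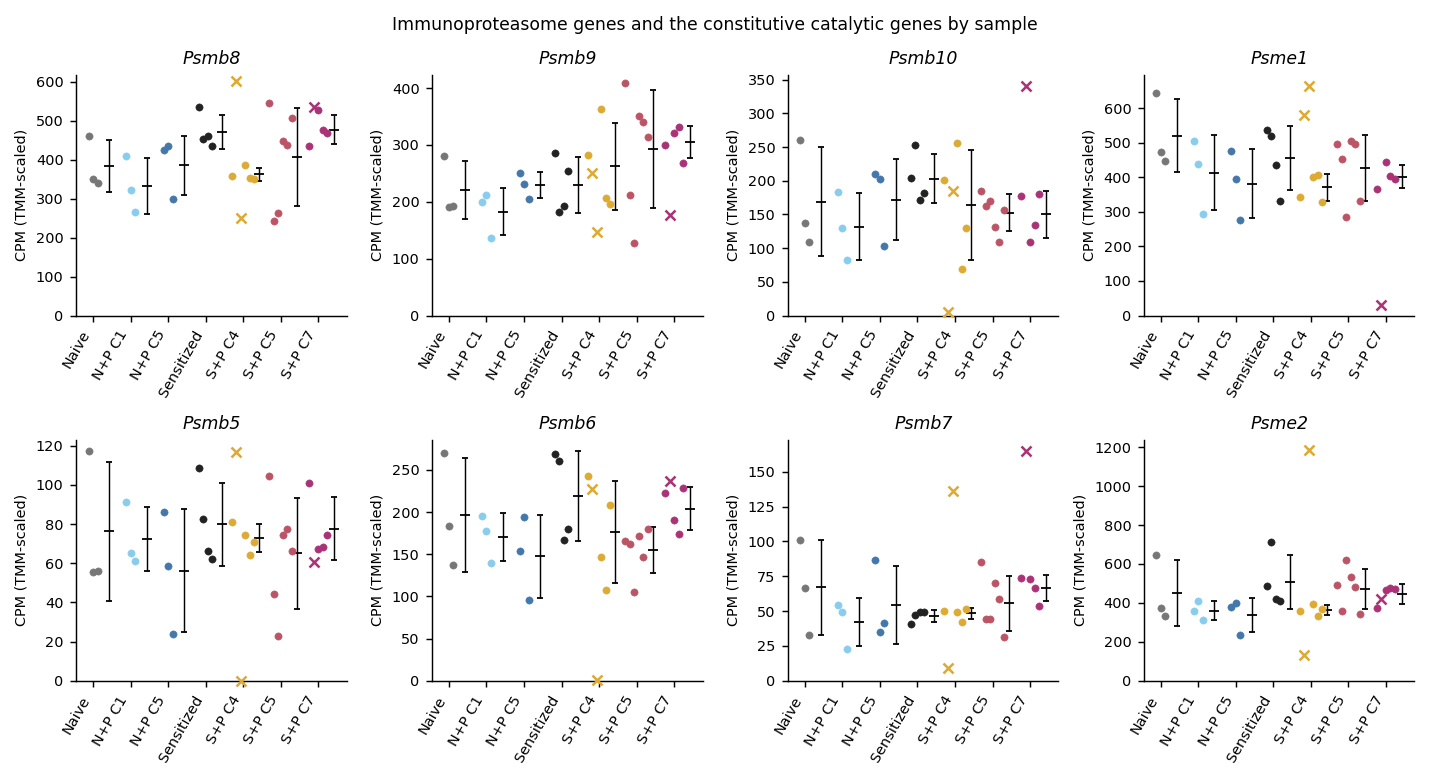
TMM-scaled CPM of the 5 immunoproteasome genes and of Psmb5, Psmb6 and Psmb7 in each sample of the 7 groups. Points are samples, crosses are the 3 samples of few genes, and black bars give the mean and SD without those 3. The groups overlap in most panels, and the crosses hold the extremes, such as 1185 CPM for Psme2 in S+P C4 and 29.6 CPM for Psme1 in S+P C7.

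The constitutive catalytic genes were present beside their counterparts. Psmb5 ran from 55.6 to 117 CPM in Naive, 61 to 91.3 CPM in N+P C1, 23.6 to 86.4 CPM in N+P C5, 62.3 to 109 CPM in Sensitized, 0 to 117 CPM in S+P C4, 23 to 104.8 CPM in S+P C5 and 60.5 to 101 CPM in S+P C7. Psmb6 ran from 96.2 CPM in N+P C5 to 270.4 CPM in Naive apart from 0.893 CPM in S+P C4 replicate 3, which also held the 0 of Psmb5. Psmb7 ran from 22.6 CPM in N+P C1 to 101 CPM in Naive in the 27 samples outside the 3 of few genes, where it was 9.27, 136 and 165 CPM.

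The share of the immunoproteasome gene in each catalytic pair, per kilobase of transcript, was high for Psmb8 and Psmb10 and near even for Psmb9. Over the 27 samples, Psmb8 made up 79.73 to 92.65% of Psmb8 plus Psmb5 (median 84.61%) and Psmb10 made up 56.86 to 83.64% of Psmb10 plus Psmb7 (median 74.32%), both over 50% in all 27. Psmb9 made up 34.97 to 65.43% of Psmb9 plus Psmb6 (median 50.05%), over 50% in 14. Per coding kilobase the medians were 84.04%, 76.87% and, for Psmb9, 58.72%, with 26 samples over 50%, so the balance of that pair depends on the length used.

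By group the Psmb8 share lay between 82.07 ± 0.925% (SD, n = 3) in N+P C1 and 87.95 ± 4.79% (SD, n = 3) in N+P C5. The Psmb9 share was 46.81 ± 4.39% in Naive (SD, n = 3), 44.85 ± 2.73% in N+P C1 (n = 3) and 44.74 ± 7.17% in Sensitized (n = 4). It was 55.11 ± 7.09% in N+P C5 (SD, n = 3), 53.56 ± 10.8% for S+P C4 (n = 4), 57.65 ± 7.19% in the S+P C5 samples (n = 6) and 53.42 ± 5.35% for S+P C7 (n = 4). Thus the 3 PD1+ gates and S+P C4 had the higher means and the unmated and N+P C1 groups the lower ones, by about the size of an SD, and the difference was not tested. The Psmb10 share ran from 75.52 to 82.61% in Sensitized and from 56.86 to 74.83% in S+P C7, ranges that did not overlap, while its range in S+P C5 was 61.99 to 81.45%. The Naive range (64.68 to 74.32%) also lay below that of Sensitized. These differences were picked after the values were seen and were not tested.

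**Figure D3:**
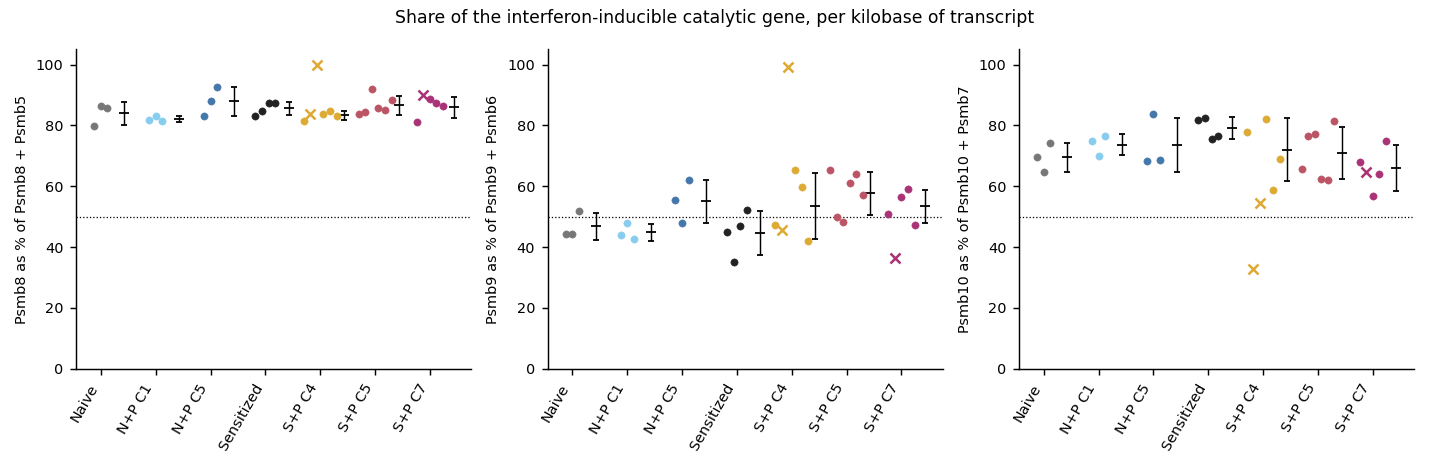
Percent of each catalytic pair that is the immunoproteasome gene (Psmb8 of Psmb8 plus Psmb5, Psmb9 of Psmb9 plus Psmb6, Psmb10 of Psmb10 plus Psmb7), from CPM per kilobase of transcript, in each sample of the 7 groups, with crosses for the 3 samples of few genes. Outside the crosses the Psmb8 share stays between 79.73 and 92.65%, the Psmb10 share between 56.86 and 83.64%, and the Psmb9 share lies on both sides of 50%.

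Each comparison was fitted over all genes by edgeR, and a gene was called at an adjusted p under 0.1 with a log2 fold change over 0.9 in size. None of the 49 members was called in any of the 11 comparisons. The test of any difference among the 7 groups called 0 members at an adjusted p under 0.1, against 1.84% of all genes tested, and 1 member, Psmc6, had an unadjusted p under 0.05 (2.04% of members, against 20.6% of all genes). The next lowest p of a member in that test was 0.513. With all samples DESeq2 called 1 member, Psmc6, in S+P C5 against S+P C4 (3.04% of all genes with libraries summed). Without the 3 samples of few genes it called Psmf1 in that comparison (3.58% of all genes) and Psmd7 in the difference of the changes (3.29%). The comparisons that share a control group share its error, so their values are given side by side.

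The effect of graft rejection was read from Sensitized against Naive mice. Of the 49 members, 0 were called (0.153% of all genes) and 0 had p under 0.05 (7.82% of all genes). Positive log2 fold changes were seen in 25 members (51.9% of all genes), with a median of 0.01 against 0.04 over all genes. The values ran from -1.77 for Psmc3ip to 0.56 for Psmd13, a lid subunit. The 5 immunoproteasome genes lay between -0.19 (Psme1) and 0.30 (Psmb8).

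Pregnancy in naive mice was read from the N+P subsets against Naive. For N+P C1, 0 members were called (0% of all genes) and 0 had p under 0.05 (3.23%), and for N+P C5, 0 were called (0.0407%) and 0 had p under 0.05 (5.33%). With all samples most members had negative values in both, with 7 of 49 positive and a median of -0.28 in N+P C1 (48.2% of all genes positive, median 0) and 10 of 49 positive and a median of -0.32 in N+P C5 (46.6% of all genes positive, median 0). Both medians rest on Naive replicate 1, without which they were -0.06 and -0.07. This is the Naive sample from which the column shared with a S+P C4 mouse was left out. Its counts come from 1 library, with 12829 genes detected, against 19796 and 15625 in Naive replicates 2 and 3. The 5 immunoproteasome genes were all negative in N+P C1, from -0.36 (Psmb10) to -0.21 (Psmb8). In N+P C5, Psme1 (-0.45) and Psme2 (-0.42) were negative while Psmb8, Psmb9 and Psmb10 lay between 0.01 and 0.05. Naive replicate 1 was the highest of the 3 Naive samples for all 5 genes, and both comparisons rest on the same 3 Naive samples.

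Pregnancy in sensitized mice was read from the S+P subsets against Sensitized. For S+P C4, 0 members were called (0.00509% of all genes) and 1, Psmc6, had p under 0.05 (12.7%). For S+P C5, 0 were called (0.0712%) and 0 had p under 0.05 (13%). The S+P C7 comparison had 0 called (0.0305%) and 0 with p under 0.05 (10.2%). The members had a median log2 fold change of -0.30, -0.11 and -0.11 in these 3 comparisons, in that order, against -0.14, -0.01 and 0 over all genes. Without the 3 samples of few genes these medians were -0.16, -0.10 and 0.03, and without Sensitized replicate 2 the S+P C5 and S+P C7 medians were -0.03 and 0.01. The highest value in S+P C5 was 1.08 for Psme4. In S+P C7 it was 0.89 for Psmb7, which stood at 0.52 (SE 0.35, p = 0.15, edgeR) without the 3 samples.

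The PD1+ subsets were compared with each other and with the PD1- subset of mice of the same history. For S+P C7 over S+P C5, which differ by the CD73 gate, 0 members were called (0%) and 0 had p under 0.05 (12.7%), with a median of 0.03 and values from -0.88 for Psmg3 to 1.05 for Psmg4. Without the 3 samples of few genes Psmg3 stood at -0.56 and Psmg4 at 0.07. Between N+P C5 and N+P C1, 0 were called (0.00509%) and 0 had p under 0.05 (4.31%), with a median of -0.04. Between S+P C5 and S+P C4, 0 were called (0.0305%) and 1, Psmc6, had p under 0.05 (13.3%), with a median of 0.12 against 0.11 over all genes. Psmb9 lay at 0.33 in N+P C5 over N+P C1 and at 0.28 in S+P C5 over S+P C4 (SE 0.41 and 0.29), neither past the threshold (p = 0.43 and 0.339, edgeR).

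The PD1+CD73+ cells of sensitized and naive mothers were compared directly and through the difference of their changes from the unmated controls. In S+P C5 against N+P C5, 0 members were called (0%) and 0 had p under 0.05 (5.88%). Of the 49, 32 were positive (49.7% of all genes), with a median of 0.15 against 0 over all genes. That median was -0.03 without N+P C5 replicate 3, 0.05 without S+P C5 replicate 1 and 0.29 without N+P C5 replicate 1. The difference of the changes (S+P C5 over Sensitized minus N+P C5 over Naive) gave 0 called members (0.0254%) and 0 with p under 0.05 (6.42%). In it 33 of 49 were positive (47.6% of all genes), with a median of 0.20 against -0.06. Without Naive replicate 1 the median was -0.01 against -0.02 over all genes, and without N+P C5 replicate 3 it was 0.10. Its values ran from -0.47 for Psme3ip1 to 1.42 for Psmc3ip. No member had a 95% interval within 1 log2 unit of 0 (0.895% of all genes), so a 2-fold difference lay inside the interval for each.

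By class, most core genes had the same sign in some comparisons, with small values. The 7 constitutive genes of the beta ring were all negative against Naive in N+P C1 (-0.67 to -0.07) and in N+P C5 (-0.46 to -0.17), as were the 6 base ATPases in N+P C1 (-0.76 to -0.27), of which 5 were also negative in N+P C5. Between the C5 subsets (S+P over N+P), 6 of the 7 tested alpha ring genes, 6 of the 7 constitutive beta ring genes and 8 of the 11 non-ATPases were positive. Their medians were 0.41, 0.21 and 0.12, whereas 1 of the 6 ATPases was positive (median -0.05). Of all genes, 49.7% were positive there. None of these members had p under 0.05 with all samples, and subunits measured in the same samples share their errors. The medians over all 49 members in these comparisons moved to near 0 without Naive replicate 1 or N+P C5 replicate 3, as given above, and the classes were not refitted without them.

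**Figure D4:**
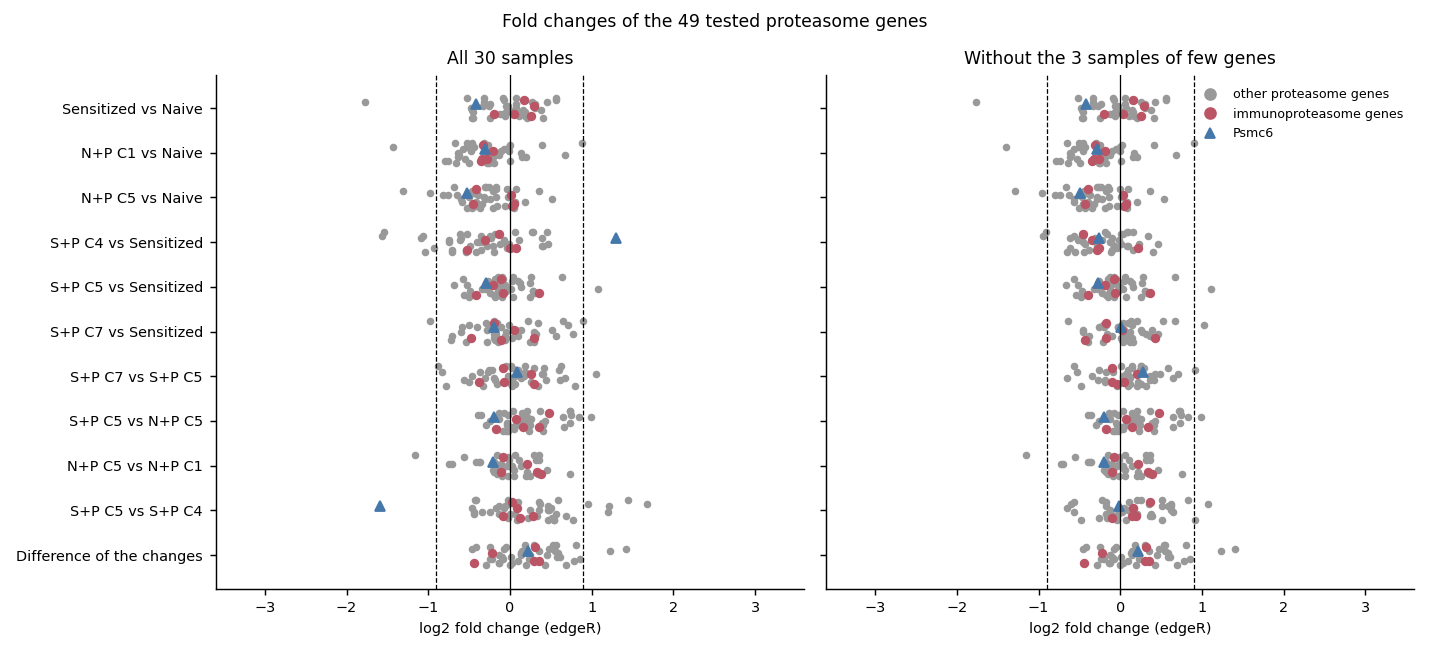
Log2 fold change of each of the 49 tested genes in the 11 comparisons, with all 30 samples and without the 3 samples of few genes, with dashed lines at the threshold of 0.9. Red points are the 5 immunoproteasome genes, which lie between -0.53 and 0.48 with all samples, and the blue triangle is Psmc6, which moves from 1.30 to -0.26 in S+P C4 over Sensitized when the 3 samples are left out.

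Psmc6, an ATPase of the 19S base (14:45567215-45587169, + strand in GRCm39), was the one member with p under 0.05. It stood at 173, 134 and 135 CPM in Naive, 145, 112 and 100.4 CPM in N+P C1, 112, 89.5 and 108 CPM in N+P C5, 145, 93.2, 106 and 98.5 CPM in Sensitized and 99.96, 39.4, 116, 138 and 89.8 CPM in S+P C7. The S+P C4 samples stood at 103, 646, 626, 61.9, 89.2 and 109 CPM, and those of S+P C5 ran from 15.8 to 144 CPM (median 91.1). The values of 646 and 626 CPM were those of the 2 samples of few genes, and the other 4 lay within the range of the other groups. The log2 fold change was 1.30 in S+P C4 over Sensitized (SE 0.60, p = 0.0371, adjusted p = 0.362) and -1.59 in S+P C5 over S+P C4 (SE 0.52, p = 0.00473, adjusted p = 0.297). Without the 3 samples the same values were -0.26 (SE 0.36, p = 0.484) and -0.01 (SE 0.33, p = 0.967), all by edgeR.

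The samples of few genes did not lose all proteasome genes alike. Tested members at 0 numbered 10 in S+P C4 replicate 2, 10 in S+P C4 replicate 3 and 8 in S+P C7 replicate 3, against 0 to 2 in the other 27 samples, and 63.5 to 65.7% of all tested genes were at 0 in them. Of the 49, 28 were detected in all 3, 16 were at 0 in 1, 3 in 2 and 2 in all 3. Against the other samples, 8 members of S+P C4 replicate 2 exceeded all 27 and 23 lay below them. The same counts were 11 and 24 in S+P C4 replicate 3 and 6 and 20 in S+P C7 replicate 3 (9.29 to 9.79% of all genes above and 18.2 to 22% below). Psmb8 was above all 27 in S+P C4 replicate 2, and Psme1 and Psme2 were in S+P C4 replicate 3, whereas Psme2 and Psmb10 were below all 27 in S+P C4 replicate 2.

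**Figure D5:**
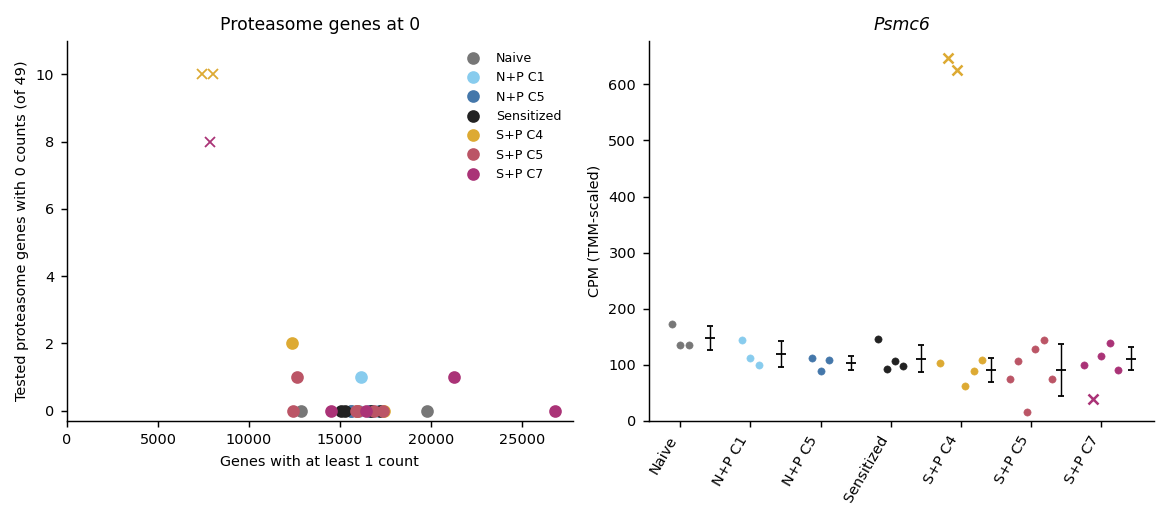
Number of tested proteasome genes at 0 against the number of genes detected in each of the 30 samples, and CPM of Psmc6 in each sample by group. The 3 samples with 7436 to 8002 genes have 8 to 10 members at 0 while the other 27 have 0 to 2, and 2 of them carry the high Psmc6 values of 646 and 626 CPM.

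These samples also set the precision. The SD of a member between mice of a group on the log2 scale, median over members, was 1.27 with them and 0.476 without them. Between technical libraries of the same mouse and subset it was 0.535 (23 pairs). The technical value is for single libraries scaled to library size, and the others are for samples that mostly sum 2 libraries, with TMM. They are therefore unlike measures, and which spread is larger was not tested. With all 30 samples, between 0 and 8 of the 49 members had a 95% interval within 1 log2 unit of 0 in a comparison (0.895 to 7.69% of all genes). The level of all genes is lower, with a median of 4.5 against 124 CPM. Without the 3, the number was 30 in Sensitized against Naive (11.4% of all genes). Against Naive it was 18 for N+P C1 (13.6%) and 18 for N+P C5 (11.8%). Against Sensitized it was 28 for S+P C4 (14.1%), 35 for S+P C5 (13.1%), and it was 31 where S+P C7 was the subset (10.7%). Between subsets it was 35 for S+P C7 over S+P C5 (12.9%) and 31 for S+P C5 over N+P C5 (15%). It was 25 for N+P C5 over N+P C1 (13.9%), 31 for S+P C5 over S+P C4 (15.3%) and 11 for the difference of the changes (3.25%). For these members a 2-fold difference lay outside the interval, and for the rest it did not.

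Leaving out the 3 samples called no member in any comparison by edgeR, but brought core and lid subunits to p under 0.05, named here after their values were seen. In S+P C5 against N+P C5, 7 members were higher: Psma2 (0.65, SE 0.23, p = 0.00823), Psma4 (0.72) and Psma6 (0.65) of the alpha ring, Psmb2 (0.74) of the beta ring, Psmd6 (0.83) of the lid, Psme2 (0.47) of the PA28 cap and the chaperone Psmg1 (0.99), with 7.68% of all genes at that p and 0.0818% called. In S+P C5 against S+P C4, 6 were higher, Psma2 (0.51), Psma3 (0.38), Psmb2 (0.62), Psmd14, the deubiquitinase of the lid (0.62), Psmd6 (0.62) and Psmf1 (0.91, SE 0.33, p = 0.00964, adjusted p = 0.334), with 13% of all genes at that p and 0.169% called. Psma2, Psmb2 and Psmd6 appear in both, and the comparisons share the S+P C5 samples.

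Elsewhere 0 to 2 members had p under 0.05 without the 3 samples. Both Psma2 (-0.62, SE 0.22, p = 0.00901, adjusted p = 0.433) and Psmd12 (-0.61) were lower in S+P C4 against Sensitized (11.4% of all genes at that p, 0.0205% called). In S+P C5 against Sensitized, Psma4 (0.67) and Psme4 (1.11, SE 0.53, p = 0.0465) were higher (17.2% and 1.02%), and in S+P C7 against Sensitized, Psma4 (0.67) was higher (11.8% and 0.353%). Against Naive, Psmd2 (-0.79) and Psmd7 (-0.62) were lower in N+P C1 (4.35% and 0.0972%), and Psmd7 (-0.56) and Psmd8 (-0.66) were lower in N+P C5 (7.71% and 0.614%). Psma6 (0.78) and Psmd7 (0.86) were higher in the difference of the changes (8.36% and 0.138%). There were 0 in Sensitized against Naive (10.5% and 0.782%), in S+P C7 against S+P C5 (13.7% and 0%) and in N+P C5 against N+P C1 (5.75% and 0.0767%). In the test of any difference 2 members had p under 0.05 (21.2%) and 0 passed the adjusted threshold (3.94%).

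Psma4 and Psme4 are given by sample. Psma4, an alpha ring subunit, stood at 97.8, 188, 107 and 101 CPM in the Sensitized samples, ran from 91.6 to 278.1 CPM in S+P C5 (median 190.7) and stood at 141, 184, 235, 223 and 186 CPM in S+P C7. Sensitized replicate 2 lay inside the range of both PD1+ subsets, and the other 3 lay below every S+P C7 sample and above the lowest S+P C5 sample. Psme4 stood at 5.39, 61.2, 30.2 and 47.8 CPM in Sensitized and ran from 38.2 to 165 CPM in S+P C5 (median 54.3), so the groups overlapped, and the mean of S+P C5 was 76.4 ± 48.5 CPM (SD, n = 6).

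The group means of the proteasome genes lay close together. Over all 30 samples the ratio of the highest to the lowest group mean had a median of 1.66 over the 49 members and 6.05 over all genes tested, whose level is lower (median 124 against 4.5 CPM). Without the 3 samples it was 1.58 against 5.23, and the ratio was under 2 in 43 members (87.8%), against 21.5% of all genes. Among the 5337 genes at or above 28.2 CPM, the 5th percentile of the members, the median ratio was 1.84 and 61% were under 2, but that floor does not match the members' level. The 6 members over 2 were Psmc3ip (6.79), Psmg3 (2.42), Psme4 (2.36), Psmf1 (2.21), Psma4 (2.08) and Psmd2 (2.08), of which Psmc3ip encodes no proteasome protein and was highest in Naive and lowest in S+P C4.

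Other genes of the pathway were read from 4 lists: 4 subunits and chaperones outside the symbol rule, 18 genes of ubiquitin conjugation, removal and delivery, 7 genes for transcription of proteasome genes, and 13 for peptide loading and interferon control. Of these 42 tested genes, 1 was called, Ifngr1, the ligand-binding chain of the interferon gamma receptor. It stood at 617, 457, 854 and 435 CPM in Sensitized, from 276 to 948 CPM in S+P C4 and from 33.2 to 180.2 CPM in S+P C5. S+P C5 lay below both groups without overlap, and Ifngr1 fell by 2.85 on the log2 scale against Sensitized (SE 0.49, adjusted p = 0.0118) and by 2.67 against S+P C4 (SE 0.46, adjusted p = 0.019), by edgeR. Of all genes tested, 0.0712% were called in the first of these comparisons and 0.0305% in the second. Ifngr1 stood at 77.5 to 473 CPM in S+P C7, 104 to 289 CPM in N+P C5 and 268 to 374 CPM in Naive. The difference of the changes was -2.02 (p = 0.0146, adjusted p = 0.649). In the same S+P C5 samples Psmb8, Psmb9, Psmb10, Psme1 and Psme2 had log2 fold changes over Sensitized of -0.21, 0.35, -0.41, -0.09 and -0.11.

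At an unadjusted p under 0.05 the lists added a few genes. Irf8, an interferon-regulated transcription factor, had log2 fold changes over Sensitized of 2.57 in S+P C4 (adjusted p = 0.38), 2.63 in S+P C5 (adjusted p = 0.35) and 3.25 in S+P C7 (adjusted p = 0.473, edgeR), and Ifngr1 was at -1.09 in S+P C7 over Sensitized, 1.76 in S+P C7 over S+P C5 and -1.14 in S+P C5 over N+P C5. Pomp, the chaperone that matures the 20S core, was at 0.75 and Ubb, a ubiquitin gene, at 0.59 in S+P C7 over S+P C5. Both were highest in S+P C7 replicate 3, a sample of few genes. Pomp stood at 409.7 CPM there, against 160 to 219.6 CPM in the other S+P C7 samples, and Ubb at 3786 against 1825 to 2430 CPM. Irf8 stood at 178.3 CPM in that same sample, against 6.198 to 37.83 CPM in the other S+P C7 samples. B2m, the light chain of MHC class I, was at 0.85 in S+P C5 over N+P C5. In S+P C5 over S+P C4, Uba6, a ubiquitin-activating enzyme, was at -1.88, turning to 0.29 without the 3 samples of few genes. None of the 4 subunits and chaperones outside the symbol rule and none of the 7 transcription genes was called, and the 2 lists had 1 and 0 genes at that p.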

How the data were processed

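RNA was sequenced from CD8 T cells sorted from C57BL/6 females (SmartSeq2, 200 cells a library, Nextera XT, 1 sequencing run, no molecular identifiers). The authors deposited raw counts per gene, made by trimming with cutadapt 3.4, alignment to GRCm39 with STAR 2.6.1b, removal of multimapping reads and counting with featureCounts 2.0.1. The annotation release and strand setting were not given in the sources used here. Removing multimappers lowers the counts of genes with near-identical copies.

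Technical libraries were summed per mouse and subset. A column with the same counts in 2 groups (2 columns) was left out of both, and near-identical libraries (r above 0.99) were averaged. Counts were fitted in edgeR 4.0.16 (R 4.3.3) with TMM scaling, filterByExpr (minimum count 10) and the robust quasi-likelihood F-test, all 7 groups in 1 fit, with Benjamini-Hochberg adjustment over the 19657 genes tested. A call needed an adjusted p under 0.1 and a log2 fold change over 0.9 in size, the thresholds of the study. The step was tested on simulated counts with large planted changes, and its pass was judged at a fixed spread, not that of these samples. That test does not show that small differences would be called. Levels are CPM with TMM scaling, and per-kilobase levels use the canonical transcript. A log2 CPM carries a pseudocount of 1. Figures and tables were made with Python 3.11.15, pandas 2.3.3 and matplotlib 3.10.9.

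The members and gene lists were chosen with earlier results of these data known. Named genes are the immunoproteasome genes and their counterparts, any gene called, up to 3 genes in each direction per comparison with an unadjusted p under 0.05, the highest and lowest per kilobase in each class, genes with at most 3 counts in every library, and genes that encode no subunit. Of the pathway lists, genes called and up to 2 in each direction per comparison and list were named. Other genes are said to be named after their values were seen. The values of 1 listed gene are not reported here.

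Alternatives were DESeq2 1.42.0, other scaling, no filter, all 56 columns, only the groups compared, no minimum fold change, each replicate left out, a replicate block, and the samples of few genes (under 9000) left out. Coding length and DESeq2 or the block without those samples were added after the data were seen. The cells came from more than 1 sort, but the labels do not assign mice to sorts, so that batch was not tested. P-values measure the spread between mice of a group, except in the DESeq2 fit of separate libraries, and sequencing depth covers counting error only. Except with the replicate block, samples of different subsets that share a replicate number entered as independent. If a number marks 1 mouse, they are not.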

Additional observations from a re-analysis of the deposited data

Results flagged for a closer look

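In groups of 4 to 6 samples the extreme value was compared with its neighbours for 22 genes (Ifngr1 among them), the 3 catalytic shares, the summed CPM of the immunoproteasome genes and the percent of counts in the proteasome genes. Of 108 groups of values, 14 held a sample set far from the rest, and chance alone marks about 1 group in 20. Of the 14, 11 belong to the 3 samples of few genes. In S+P C4 replicate 3, Psme2 stood at 1185 CPM (next 396.1), Psmb7 at 135.9 CPM (next 51.31), Psmc4 at 598.4 CPM (next 211.9) and Psmg4 at 95.88 CPM (next 27.41), and the Psmb8 share was 100% (next 84.61%) because Psmb5 had 0 counts there. In S+P C7 replicate 3, Psme1 stood at 29.61 CPM (next 365.1), Psmc4 at 28.45 CPM (next 133.8) and Psmf1 at 0 CPM (next 46.76), while Psma7 stood at 652.7 CPM (next 377.8), Psmb7 at 165.1 CPM (next 73.91) and Psmg4 at 135.8 CPM (next 29.35). The 3 values outside those samples were all in Sensitized mice: Psma4 at 188.2 CPM (next 106.6) and Psmf1 at 111 CPM (next 50.2) in replicate 2, and Psmg4 at 15.03 CPM (next 35.96) in replicate 4.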

How the results depend on the processing

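Of 241 counts of members called under the alternatives, 237 were 0, including all 30 fits without 1 replicate (0 to 0 in every comparison) and the replicate block, which gave 0 called members in S+P C7 against S+P C5, N+P C5 against N+P C1 and S+P C5 against S+P C4. The other 4 were 1 each, by DESeq2: Psmc6 in S+P C5 against S+P C4 with libraries summed (-1.61, adjusted p = 0.0548) or separate (-1.11, adjusted p = 0.049), and, without the 3 samples of few genes, Psmf1 in S+P C5 against S+P C4 (0.94, adjusted p = 0.0797) and Psmd7 in the difference of the changes (0.90, adjusted p = 0.0695). Psmc6 turned in S+P C4 against Sensitized to -0.26 by edgeR and -0.25 by DESeq2 without those samples, and in S+P C5 against S+P C4 to 0.15 with the block without them. Its values without 1 replicate ran from 0.78 to 1.53 and from -1.81 to -1.08. Uba6 turned in S+P C5 against S+P C4 to 0.29 (edgeR) and 0.32 (DESeq2) without the 3 samples, 0.31 with separate libraries, 0.12 with the block and 0.58 without S+P C4 replicate 3 (-2.37 to 0.58 without 1 replicate). The Psmb9 share moved from a median of 50.05 to 58.72% per coding kilobase. Ifngr1 lost its call without the filter (-2.86, adjusted p = 0.12 against Sensitized, and -2.66, adjusted p = 0.109 against S+P C4) and, against S+P C4, with only those groups (-2.68, adjusted p = 0.177), the block (-2.88, adjusted p = 0.282) and the block without the 3 samples (-2.94, adjusted p = 0.119). Subsets share a replicate number in the labels, which do not say that a number marks 1 mouse. The mean correlation of the deviations from the group means was 0.125 for S+P C7 and S+P C5 (lowest -0.032), 0.075 for N+P C5 and N+P C1 (lowest 0.023) and 0.139 for S+P C5 and S+P C4 (lowest 0.097), against -0.021, -0.037 and -0.019 between different numbers, and 10 of 11, 6 of 6 and 10 of 12 samples correlated best with their own number, which is a hint from the data and not the design. Of 1987 alternative values of single genes, 143 uncalled ones had the other sign, 11 calls were gained, all by DESeq2 (Psmc6, Irf8 and Ifngr1), and 5 lost. DESeq2 called 1.33 to 3.31% of all genes with all samples and 2.17 to 4.68% without the 3. In the 11 comparisons from the fit of all 7 groups, edgeR called 0 to 0.153% with all samples and 0 to 1.02% without the 3. It called up to 1.06% when only the groups compared were fitted. The edgeR test of any difference called 1.84% with all samples, 3.94% without the 3 and 42.2% without the filter, with 0 members called in each. Except where a fit has fewer samples or genes, the cause of these shifts was not tested. Each library came from 200 cells, and whether the values near 0 depend on the cells sampled or on depth was not tested.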
